A study of Homo sapiens with 2 samples.

Results

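The 10 immediate early genes FOS, FOSB, JUN, JUNB, JUND, EGR1, IER2, ATF3, DUSP1 and KLF6 were followed in single SH-SY5Y cells, a human neuroblastoma line of adrenergic type that was itself subcloned from a parent line, so that all cells descend from 1 clone. They were found by their Ensembl identifiers among the 33538 genes of the count table, and all 10 were present. The cells were untreated. They grew in DMEM with 10% fetal bovine serum in 2 flasks, SplitA and SplitB, that came from the same culture and had the same condition, and were harvested at about 80% confluence according to the protocol, or about 70% according to the design text. Each flask was blocked for 10 min and labelled with its own hashtag antibody for 30 min, both on ice, before the flasks were pooled into 1 droplet library. A cell was assigned to a flask when its hashtag had at least 3 times the count of the other hashtag and the other stayed within the limit set in the study's code. This put 1179 of 2879 cells in SplitA and 1605 in SplitB and left 95 as multiplets. Cells with at least 1000 genes were kept, 899 in SplitA and 1195 in SplitB. Their median depth was 6063 and 6346 unique molecular identifiers (UMIs, each a counted mRNA molecule), and 17881 genes had a UMI in a kept cell.

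The label of the line held in these cells. All 10 adrenergic neuroblast markers checked had UMIs in both flasks, with a summed level of 3237 UMIs per 1000000 UMIs (CPM) in SplitA and 3125 in SplitB. Of them, 9 were in at least 5% of cells of each flask. The exception was TH, which was nearly absent, with 9 UMIs in each flask (1.54 and 1.12 CPM). The 10 markers of the mesenchymal-like neuroblastoma state summed to 137 and 166 CPM, mostly from VIM, with PRRX1, TNC and ANXA1 at 0.

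Immediate early genes are transcribed within minutes of a stimulus, without new protein synthesis, from promoters that are already open. In neuroblasts they respond to serum, growth factors, depolarization and stress through the ERK and p38 kinases, serum response factor and CREB. Their mRNAs are short-lived, and they are also known to be switched on when cells are taken out of culture or tissue. FOS, FOSB, JUN, JUNB and JUND are subunits of the dimeric transcription factor AP-1, EGR1, ATF3 and KLF6 are further transcription factors, IER2 is a small nuclear protein with a role in transcription, and DUSP1 is the phosphatase that removes the activating phosphates from p38, JNK and ERK.

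On GRCh38 (GENCODE release 44) 4 of the 10 genes lie on chromosome 19, namely FOSB (chr19:45467995-45475179, plus strand), JUNB (chr19:12791486-12793315, plus strand), JUND (chr19:18279694-18281622, minus strand) and IER2 (chr19:13150411-13154911, plus strand). EGR1 (chr5:138465479-138469303, plus strand) and DUSP1 (chr5:172768096-172771195, minus strand) lie on chromosome 5, and JUN (chr1:58776845-58784048, minus strand) and ATF3 (chr1:212565334-212620777, plus strand) on chromosome 1. FOS is at chr14:75278826-75282230 on the plus strand and KLF6 at chr10:3775996-3785281 on the minus strand. The annotated transcripts used here have 1 exon in JUN, JUNB and JUND, 2 in EGR1 and IER2 and 4 in the other members. On the opposite strand, FOSB overlaps ERCC1, JUNB overlaps HOOK2, and IER2 and DUSP1 overlap long non-coding RNAs. The 3′ kit used here marks the strand, and the setting under which reads were counted is not given in the sources used here.

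All 10 genes had a promoter entry in RefSeq (GRCh38.p14, 250 bases before to 50 bases after the start site, 35116 entries, ATF3 with 2 of them). The 3 promoters shown are those of EGR1 and IER2, the 2 members with the highest Pearson r of log-normalized values across cells, and of FOS, printed 5′ to 3′ on the strand of the gene. Capitals mark the cAMP response element core TGACGT on either strand and, in EGR1, the CArG box bound by serum response factor.
EGR1 (chr5:138465229-138465528): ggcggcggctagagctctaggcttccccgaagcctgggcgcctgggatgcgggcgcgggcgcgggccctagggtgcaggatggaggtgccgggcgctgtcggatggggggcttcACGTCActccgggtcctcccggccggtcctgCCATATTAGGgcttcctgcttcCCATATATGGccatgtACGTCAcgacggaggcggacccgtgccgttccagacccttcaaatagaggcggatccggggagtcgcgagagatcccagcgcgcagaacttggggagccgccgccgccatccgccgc
IER2 (chr19:13150161-13150460): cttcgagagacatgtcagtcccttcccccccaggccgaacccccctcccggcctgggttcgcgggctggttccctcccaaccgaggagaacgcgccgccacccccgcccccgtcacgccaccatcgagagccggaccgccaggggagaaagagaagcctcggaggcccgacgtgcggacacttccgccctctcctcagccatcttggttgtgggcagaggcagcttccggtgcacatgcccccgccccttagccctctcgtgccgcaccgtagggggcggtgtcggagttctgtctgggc
FOS (chr14:75278578-75278877): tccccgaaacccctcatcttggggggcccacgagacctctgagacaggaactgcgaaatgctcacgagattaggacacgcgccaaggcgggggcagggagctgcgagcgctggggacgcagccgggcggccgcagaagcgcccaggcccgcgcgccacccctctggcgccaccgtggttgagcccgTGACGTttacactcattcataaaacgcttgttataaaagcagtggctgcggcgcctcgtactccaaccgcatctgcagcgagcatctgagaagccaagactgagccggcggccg
In EGR1 the cores began 136 and 67 bases before the start site and the CArG boxes 105 and 83 bases before it, and in FOS the core began 64 bases before it. The IER2 window held none of the motifs searched. The core TGACGT was present in 5 members (FOS, FOSB, JUND, EGR1 and DUSP1) against 7.98% of all entries, and its palindrome TGACGTCA, which contains the core, in JUND and DUSP1 against 1.85%. Within these windows the CArG box was in EGR1 alone among the members and in 1.29% of all entries. The AP-1 site TGACTCA (4.95% of all entries) and the EGR site GCGTGGGCG (0.795%), searched on both strands like the others, were in no member. Sites further upstream and variants of the AP-1 site were not searched, so a motif missing here can be present elsewhere in the promoter. A match describes the letters and is not a shown binding site.

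The members spanned a wide range of levels in these untreated cells, and the order was nearly the same in both flasks. Because the assay counts the 3′ end of each molecule, levels can be set side by side between genes without a length correction. Levels are in CPM with 95% Poisson intervals, and shares are percent of cells with at least 1 UMI with exact binomial intervals, both of which cover counting error only.

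Among the AP-1 subunits, JUND, the subunit known for steady expression in resting cells, was highest. It had 97.9 CPM in SplitA and 109 CPM in SplitB, with intervals of 90.0 to 106 and 102 to 117. JUNB followed with 64.9 and 64.1 CPM, and JUN with 55.9 and 51.7 CPM. FOS, which must pair with a JUN protein to bind DNA, had 24.3 and 28.9 CPM. FOSB was near the limit of what this depth can show, with 8 UMIs in 8 cells of SplitA and 19 UMIs in 19 cells of SplitB (1.37 and 2.36 CPM). JUN family mRNA was thus several times more abundant than FOS family mRNA in each flask.

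Of the other members, IER2 had 115 CPM in SplitA and 108 CPM in SplitB (intervals of 106 to 124 and 100.6 to 115), above JUND in SplitA and just below it in SplitB. EGR1 had 29.7 and 26.7 CPM and KLF6, a zinc finger factor, 29.4 and 28.5 CPM. DUSP1 had 15.2 and 19.8 CPM. ATF3, a stress-induced factor that can dimerize with JUN proteins, had 10.8 and 14.8 CPM. By level among the 17881 genes, IER2 ranked 954 and JUND 1022, while ATF3 ranked 6324 and FOSB 11806.

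**Figure D1:**
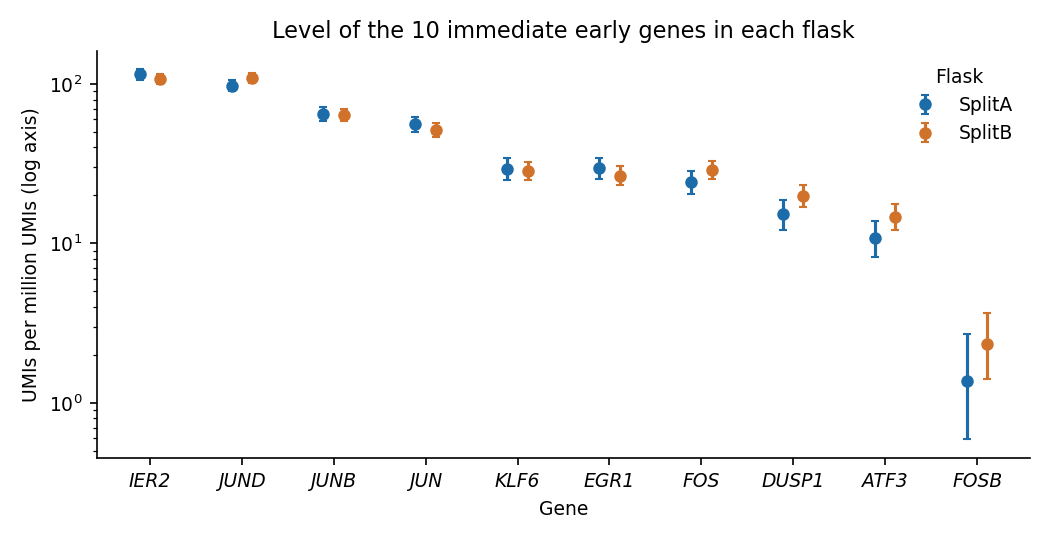
Level of each of the 10 genes (CPM, log axis) in SplitA and SplitB, with bars for the 95% Poisson interval. IER2 and JUND lie near 100, JUNB and JUN between 51.7 and 64.9, KLF6, EGR1 and FOS between 24.3 and 29.7, and FOSB at 1.37 and 2.36.

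IER2 and JUND changed places between flasks and cannot be ordered, and neither can KLF6, EGR1 and FOS. JUN was above KLF6 and FOS above DUSP1 in each flask, with counting intervals that did not overlap. JUNB was above JUN in each flask, with overlapping intervals in SplitA. DUSP1 was above ATF3 in each flask, with overlapping intervals in both. Between the flasks, which had the same condition, the counting interval of the log2 difference (SplitB minus SplitA) left out 0 by a narrow margin for ATF3 (0.45, interval 0.00229 to 0.92), DUSP1 (0.38, 0.000573 to 0.77) and JUND (0.16, 0.00272 to 0.31), and included 0 for the other 7. With 1 flask against 1 flask no test of this difference is possible.

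IER2 was found in 46.5% of SplitA cells (43.2 to 49.8) and 46.8% of SplitB cells (43.9 to 49.7), and JUND in 40.7% and 45.1%. The shares were 31.6% and 29.7% for JUNB, 26.4% and 27.4% for JUN, 15.4% and 12.9% for EGR1, 15.6% and 15.1% for KLF6, 13.2% and 16.2% for FOS, 9.34% and 12% for DUSP1, 6.79% and 8.12% for ATF3 and 0.890% and 1.59% for FOSB. The EGR1 share was lower in SplitB than in SplitA, and its intervals of 13.1 to 17.9% and 11.0 to 14.9% overlapped. When each cell was thinned to 2000 UMIs, which left out 1 cell of SplitA and 2 of SplitB, IER2 was found in 19.7% and 20.3% of cells and FOS in 4.79% and 5.70%, and the median share over the 10 genes was 5.40% ± 0.48 (SD, n = 2 flasks). All cells were of 1 type, and free RNA in the droplets has no control here, so the share of these cells that background alone would give is unknown.

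Most positive cells held a single UMI of a member, and a few held many. Among cells with JUND, 36.9% in SplitA and 38.2% in SplitB had at least 2 UMIs, and among cells with ATF3 3.28% and 14.4% did. The highest count in a cell was 7 for IER2 in SplitA and 15 in SplitB, 5 and 10 for EGR1, 4 and 13 for JUNB, 3 and 7 for FOS, and 1 and 1 for FOSB.

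To set this unevenness against counting error, the spread of each gene's UMIs over cells was divided by the spread that the cells' depths and Poisson counting give, so that 1 stands for counting error alone. This measure and its limit of 1.1 were chosen after a first look at the data. Of the 9 members with a UMI in at least 5% of cells of each flask, 9 had a ratio of at least 1.1 in both flasks, against 24.0% of the 7770 genes of the nucleus at that share. The lowest members, FOS and DUSP1 in SplitA at 1.14, were close to the limit. The other genes were not matched to the members by level, so the count is a description only. The highest ratios were those of EGR1 (1.43 in SplitA and 1.82 in SplitB), IER2 (1.53 and 1.56), JUNB (1.28 and 1.82) and JUN (1.51 and 1.27). The median gene had 1.06 in SplitA and 1.07 in SplitB. Without the cells under 5% mitochondrial UMIs, JUNB fell to 1.59 and EGR1 to 1.43 in SplitB, and all 9 stayed at 1.1 or above in both flasks. FOSB, outside this comparison for its low share, had 0.983 and 0.929.

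**Figure D2:**
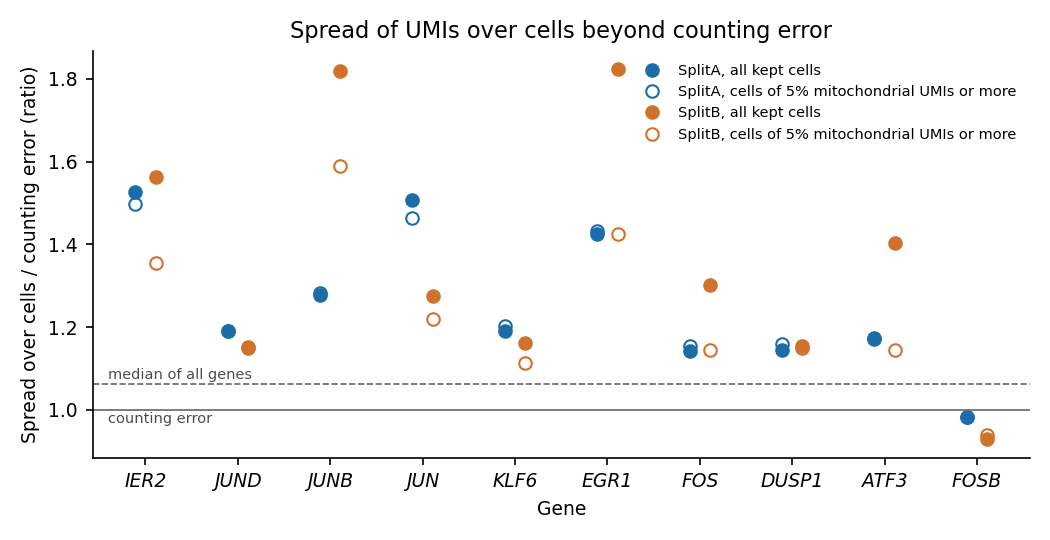
Spread of UMIs over cells divided by counting error (ratio) for each gene, in SplitA and SplitB, over all kept cells (filled) and over cells of at least 5% mitochondrial UMIs (open). The lines mark counting error (1) and the median of all genes. The members other than FOSB lie above the median of all genes in both flasks, and JUNB, EGR1, IER2, FOS and ATF3 of SplitB fall when cells of low mitochondrial share are left out.

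Immediate early genes can be induced as a group, so the number of members in the same cell was counted. At 2000 UMIs a cell held 0.810 members on average in SplitA and 0.827 in SplitB, and 44.7% and 44.3% of cells held none. If the members were placed in cells independently at their own shares, 377 SplitA cells and 492 SplitB cells would hold none, and 401 and 529 did. At the other end, 12 SplitA cells and 15 SplitB cells held at least 4 members, against 3.96 and 5.83 cells under independence. Another random draw of 2000 UMIs gave 6 and 16 such cells. With all UMIs, cells held 2.06 and 2.15 members on average and 13.1% and 13.3% held none, and the 10% of cells with most member UMIs carried 28.7% and 31.1% of them.

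Pair by pair, co-detection was weak. A pair was counted when its share of cells with both genes, at 2000 UMIs, was at least 1.5 times the product of the 2 single shares in both flasks, and 8 of 45 pairs reached this. Of the 36 pairs whose members were in at least 1% of cells, 5 did, against 5.11% of all pairs of such genes. Another draw gave 10 pairs, of which 2 were shared with the first. Averaged over all possible draws, 4 pairs reached 1.5, namely JUN with ATF3 (2.05 in SplitA and 1.86 in SplitB), EGR1 with KLF6 (1.58 and 1.86), EGR1 with IER2 (1.55 and 1.70), and FOSB with DUSP1, which rests on 2 cells in each flask. With all UMIs and each cell's depth taken into account, no pair reached 1.5 in both flasks, while 22 of 45 were above 1 in both and 6 below 1 in both. The share of all gene pairs above 1 was not computed at full depth. At 2000 UMIs, 20 of the 36 pairs were above 1 in both flasks, against 22.3% of all pairs of such genes. In both comparisons with all pairs the other genes were not matched to the members by level, so the counts are descriptions only.

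At full depth, the 4 pairs with the highest ratio in the lower flask were JUN with ATF3 (1.36 in SplitA and 1.45 in SplitB), ATF3 with KLF6 (1.28 and 1.77), EGR1 with KLF6 (1.42 and 1.27) and EGR1 with IER2 (1.29 and 1.26). IER2 was found in 65.9% of the SplitA cells with EGR1 and in 43.0% of those without it, and in 65.6% and 44% in SplitB. In number, 91 SplitA cells and 101 SplitB cells held both, against 70.8 and 79.9 expected from depth. ATF3 was found in 10.5% of SplitA cells with JUN and in 5.44% of those without, and in 13.4% and 6.11% in SplitB. KLF6 was found in 23.0% of SplitA cells with ATF3 and in 15% of those without, and in 30.9% and 13.7% in SplitB. It was found in 25.4% of SplitA cells with EGR1 and in 13.8% of those without, and in 22.1% and 14.0% in SplitB. These shares are not adjusted for depth, since a deeper cell shows more of every gene.

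Across cells, log-normalized values of the members were weakly and mostly positively correlated, and r is given as a description, since the cells share 1 library and differ in depth. The summed member UMIs of a cell had a rank correlation of 0.29 in SplitA and 0.34 in SplitB with its depth. Over 899 cells of SplitA and 1195 of SplitB, 34 of 45 pairs had a positive r in both flasks and 5 had at least 0.1 in both. These were EGR1 with IER2 (0.17 and 0.19), JUN with ATF3 (0.13 and 0.13), JUNB with IER2 (0.13 and 0.11), EGR1 with KLF6 (0.11 and 0.11) and FOS with IER2 (0.10 and 0.10). The share of all gene pairs with such values of r was not computed. In cells of at least 5% mitochondrial UMIs, EGR1 with IER2 kept 0.16 and 0.16, while the other 4 pairs were under 0.1 in SplitB, with JUN and ATF3 at 0.13 and 0.085.

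**Figure D3:**
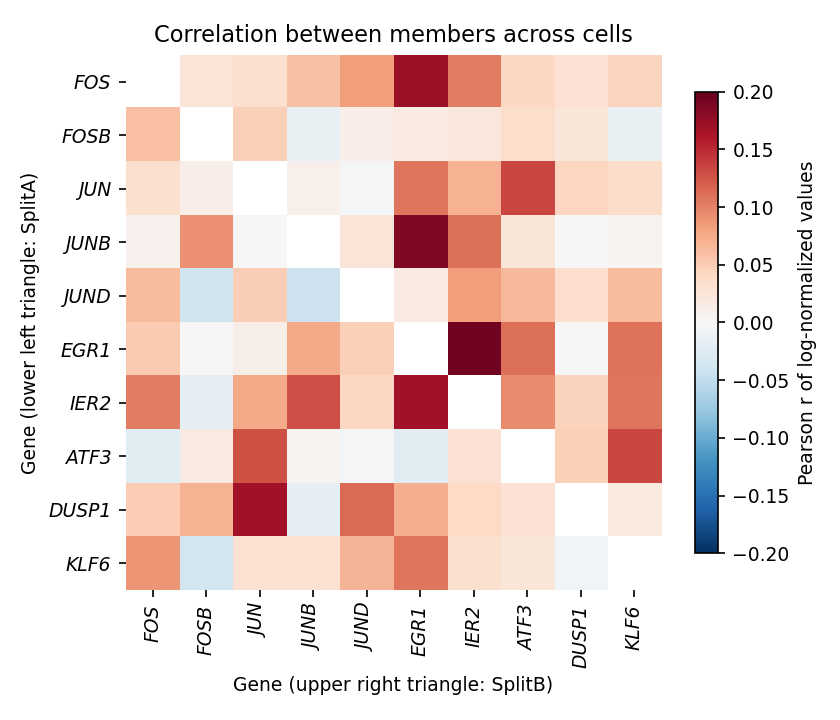
Pearson r of log-normalized values between members across cells, with SplitA (899 cells) in the lower left and SplitB (1195 cells) in the upper right triangle. The highest value in SplitB is EGR1 with IER2 (0.19), and EGR1 has a warm row in SplitB that is paler in SplitA.

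Against the mean standardized value of the other 9 members, 4 of 10 members had an r of at least 0.1 in both flasks, compared with 0.232% of the other 7774 genes tested against the mean of all 10. They were IER2 (0.18 in SplitA and 0.23 in SplitB), EGR1 (0.15 and 0.26), JUN (0.15 and 0.13) and FOS (0.13 and 0.16). DUSP1 had 0.15 in SplitA and 0.065 in SplitB, and ATF3 0.053 and 0.19, so each was past the limit in 1 flask. FOSB had 0.044 and 0.042. In cells of at least 5% mitochondrial UMIs, JUN had 0.14 and 0.083 and dropped out, which left 3. In cells thinned to 2000 UMIs, 1 of the 10 members had an r of at least 0.1 in both flasks.

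The 10 other genes whose values were most like the mean of the members, by the smaller r of the 2 flasks, were TPM1, VGF, TNFRSF12A, H3-3B, FERMT2, TAGLN2, ARC, MYL6, NPY and METTL23. TPM1, a tropomyosin of actin filaments, had 0.21 in SplitA and 0.19 in SplitB. VGF, a neuropeptide precursor induced by nerve growth factor, had 0.16 and 0.17, and TNFRSF12A, a receptor of the TNF family, 0.17 and 0.14. ARC, an immediate early gene of neurons, had 0.13 in each flask and was the single gene past 0.1 of the 9 genes at the share limit in the list of other immediate early effectors. No gene of the other AP-1, transcription factor, ERK feedback, heat shock or ATF4 target lists passed.

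Other genes of the immediate early response were mostly low. Of 13 further immediate early transcription factors, 3 were in at least 5% of cells of each flask, KLF10 (21.2 and 22.2 CPM), SRF (18.6 and 14.1) and NR4A1 (14.7 and 15.2), and NR4A2, KLF2 and KLF4 had no UMI, where a count of 0 allows up to 3 UMIs in a flask. Of 10 further AP-1 genes, MAFG was highest (73.3 and 72.2 CPM), followed by ATF7 (16.7 and 16.0) and ATF2 (11.1 and 8.55), and BATF had no UMI. Of 20 other effectors and mRNA decay genes, BTG1, which restrains growth (143 and 149 CPM), MCL1, which opposes apoptosis (66.1 and 69.4), and ZFP36L2 (48.2 and 46.1), which destabilizes mRNA, were highest, and IER3 and CCN2 had no UMI. The phosphatases DUSP8 (42.5 and 48.0 CPM), DUSP4 (39.1 and 45.6) and DUSP6 (24.9 and 25.9) led the ERK feedback genes.

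Cells with more members at 2000 UMIs also held more mRNA of the other effectors. In SplitA their summed level was 372 CPM in cells without a member, 443 with 1, 499 with 2 and 618 with 3 or more (interval 522 to 727), and in SplitB it was 404, 430, 460 and 573 (498 to 656). The median depth of the same cells fell from 6448 to 5024 UMIs in SplitA and from 6663 to 5668 in SplitB. The other immediate early transcription factors did not follow in SplitA, with 59.3 CPM without a member and 59.7 with 3 or more, against 60.2 and 150 in SplitB. The other AP-1 genes had 114 and 128 CPM in SplitA, with overlapping intervals, and 112 and 180 in SplitB. Heat shock genes, which are reported to rise in dissociated cells, were at 3059 CPM without a member and 3964 with 3 or more in SplitA, and at 3066 and 3743 in SplitB. ATF4 target genes had 192 and 239 CPM in SplitA and 187 and 237 in SplitB. ERK feedback genes had 166 and 213 CPM in SplitA and 186 and 215 in SplitB. The intervals of these 2 lists overlapped in each flask. The median change of all genes between these cells was not computed, so a rise is not by itself particular to the effectors. The share of cells called G2M was 25.4% without a member and 45.2% with 3 or more in SplitA, and 23.3% and 37.3% in SplitB. Cells of at least 15% mitochondrial UMIs made up 7.23% and 21.4% in SplitA, and 10.0% and 8.47% in SplitB. The part of depth, phase and mitochondrial share in these levels was not tested.

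In 6 cells, 2 of SplitA and 4 of SplitB, the 10 genes together had at least 20 UMIs, while the median cell had 2. The highest, a SplitB cell called G1 with 8161 UMIs, had 59 UMIs of 8 members, or 7230 CPM, with 15 of IER2, 13 of JUNB, 10 of EGR1, 7 of FOS, 6 of ATF3, 4 of JUN, 3 of KLF6 and 1 of FOSB. A second SplitB cell had 36 UMIs of 9 members, with 7 each of JUNB and EGR1. The other 4 cells had 25, 22, 21 and 20 UMIs of 7 or 8 members. JUND led in the cells with 25 and 21 UMIs, which were also the deepest of the 6 (23172 and 26386 UMIs), so that their members amounted to 1079 and 796 CPM. The remaining 4 had 1799 to 7230 CPM, against a median of 378 CPM per cell in SplitA and 383 in SplitB. Those 4 also had mitochondrial shares of 2.52 to 4.70%, under the flask medians of 8.64% and 8.82%.

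Over the 6 cells, GADD45G, a growth arrest gene, had 115 CPM against 5.21 in all other cells, from 10 UMIs in 2 cells. SPRY2, a feedback inhibitor of ERK signalling, had 103 against 20.2 CPM, from 9 UMIs in 5 cells. Both are examples from their lists, and other genes of these lists were not higher, such as BTG1 (137 against 146 CPM) and SPRED2 (11.5 against 24.4 CPM). The hashtag of the other flask had 11 to 122 counts in these cells, within the limit for singlets. Doublets of cells from the same flask carry a single hashtag and could not be removed.

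The relation to the mitochondrial share, which is commonly read as a sign of stressed or damaged cells, was not a single trend. Levels here are in CPM over the UMIs of genes of the nucleus, since the 13 mitochondrial genes otherwise change the total. On this scale the median of all genes was also higher in cells of at least 15%, as given below. A rise of the members there is thus not by itself particular to them. From 5 to 10% mitochondrial UMIs the summed members were at 466 CPM in SplitA (445 to 488) and 467 in SplitB (449 to 486), and from 10 to 15% at 523 (480 to 569) and 522 (484 to 561). From 15 to 30% they were at 878 in 53 SplitA cells (723 to 1055) and 704 in 60 SplitB cells (584 to 842). At 30% or more, 17 and 44 cells gave 648 and 495. Across cells, the rank correlation of the members' mean with the mitochondrial share was 0.076 in SplitA and 0.011 in SplitB.

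**Figure D4:**
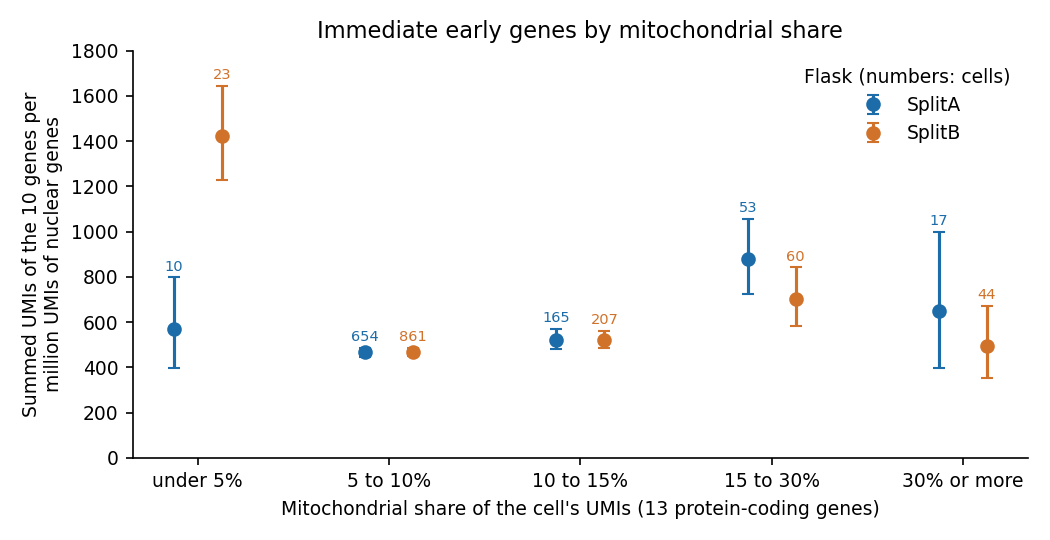
Summed level of the 10 genes (CPM over the UMIs of nuclear genes), by the mitochondrial share of the cell, in SplitA and SplitB, with 95% Poisson intervals and the number of cells above each point. SplitB cells under 5% stand at 1425, and the bin from 15 to 30% is above the bins from 5 to 15% in both flasks. The median of all genes on this scale was also higher in cells of at least 15%.

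At the low end the flasks differed. In the 23 SplitB cells under 5% mitochondrial UMIs the members summed to 189 UMIs, or 1425 CPM (1229 to 1643), and in the 10 SplitA cells to 34 UMIs, or 571 CPM (395 to 798), against 484 and 488 CPM in the cells of at least 5%. IER2 (45 UMIs), JUNB (29), JUN (26), EGR1 (25) and ATF3 (19) made up most of the SplitB UMIs, and JUND had 10. The result leans on 3 of the cells described above: without them SplitB had 674 CPM (527 to 849) in 20 cells, and without its 1 such cell SplitA had 286 CPM (156 to 480) in 9. In the 23 SplitB cells the ATF4 target genes, known from the response to amino acid shortage and endoplasmic reticulum stress, were at 874 CPM against 197 in the other SplitB cells. This list also holds ATF4 itself and XBP1. The heat shock genes were at 5759 against 3389 CPM, and 78.3% of the cells were called G1. These 2 lists did not lean on the same 3 cells: without them the ATF4 target genes were at 936 CPM and the heat shock genes at 6103 CPM. In the 10 SplitA cells the ATF4 target genes were at 353 against 212 CPM, the heat shock genes at 3140 against 3427 CPM, and 60% were called G1. Without the 1 SplitA cell of many member UMIs, the 2 lists were at 306 and 2614 CPM. The part of these in the members' level was not tested.

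A test was made with UMIs summed per flask in cells of at least 15% mitochondrial UMIs, 70 in SplitA and 104 in SplitB, against the rest. Of 11200 genes tested, 8.88% were higher and 12.3% lower by edgeR's quasi-likelihood test at a Benjamini-Hochberg adjusted p under 0.05 with the flask as a block. Of the 9 members tested 1 fell and none rose. JUND changed by a log2 of -0.88 ± 0.21 (SE, 2 flasks, adjusted p = 0.0031 by edgeR), from 108 to 100 CPM of nuclear genes in SplitA and from 121 to 103 in SplitB. This call does not hold in the default form of edgeR's fit, which was run first (adjusted p = 0.0501), nor in DESeq2 (0.0926), and it rests on TMM scaling, which takes the change of the bulk of genes as 0. DUSP1 had a log2 change of 0.96 ± 0.37, from 15.5 to 56.4 CPM in SplitA and from 20.6 to 59.2 in SplitB, and did not pass (adjusted p = 0.0749 by edgeR). EGR1 (0.14), IER2 (0.10), JUN (0.06) and JUNB (-0.02) were near 0 over both flasks together. Taken alone, and with no filter on low counts, the flasks differed in sign for IER2 (0.53 in SplitA and -0.48 in SplitB), JUN (0.21 and -0.19) and EGR1 (0.19 and -0.03). Leaving out that filter also lowered the values over both flasks, to 0.02 for IER2, -0.02 for JUN and 0.06 for EGR1. The sign of EGR1 in SplitB is thus not settled. IER2 went from 121 to 301 CPM in SplitA and from 118 to 142 in SplitB.

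Scaling by library size alone moved the median of all genes from -0.06 to 0.63 and changed which members passed. The levels given above for each range of mitochondrial share are on this scale. JUN (0.76), JUNB (0.68), IER2 (0.79) and DUSP1 (1.65) then passed as higher, JUND (-0.19) did not pass, and 84.9% of all calls were higher instead of 41.9%. The cells of at least 15% had a median of 2704 and 2837 UMIs against 6329 and 6579, and the share called S phase was 54.7% and 58.3% from 15 to 30% against 29.2% and 28.9% from 5 to 10%.

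Heat shock genes had 7 of 12 higher and 2 lower in this contrast, with a median log2 change of 1.01 against -0.06 for all genes and -0.02 for the members. HSPA1A (2.55), HSP90AA1 (2.02) and HSP90AB1 (1.81), the inducible and the constitutive chaperones, rose, and HSPE1 (-1.32) fell. Of 8 genes tested in the ATF4 target list, which includes ATF4 itself and XBP1, the amino acid synthesis genes ASNS (3.01), PHGDH (1.95) and PSAT1 (1.18) rose. The others did not pass, with DDIT4 (-1.46), TRIB3 (-1.07), DDIT3 (-0.63) and ATF4 (-0.56) below 0 and XBP1 (0.40) above it. The median of the 8 was -0.08, near that of all genes. Of 15 other effectors, MCL1 (0.58) rose and ZFP36L2 (-1.22) and BTG1 (-0.92) fell, of 9 ERK feedback genes SPRY2 (-1.95) fell, and none of 7 other AP-1 genes or of 3 other transcription factors passed, with medians of -0.58 and -0.89.

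Levels were also compared between phases of the cell cycle. Cells were called G1, S or G2M from the expression of S and G2M genes, which include none of the members, and gave 374, 287 and 238 cells in SplitA and 512, 354 and 329 in SplitB. In CPM, JUNB fell from G1 through S to G2M in each flask, while KLF6 and JUND were highest in G2M.

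JUNB is the AP-1 subunit known to restrain proliferation and, as a protein, to be degraded before mitosis. Protein was not measured here. JUNB mRNA was at 80.1 CPM in G1, 62.9 in S and 46.2 in G2M in SplitA, and at 78.5, 60.4 and 47.2 in SplitB. Its log2 change from G1 to G2M was -0.88 ± 0.13 (SE, 2 flasks, adjusted p = 6.145e-11 by edgeR). Taken alone, with phases called anew within the flask and no filter on low counts, SplitA had -0.91 and SplitB -0.85. The fall of JUNB passed in all 14 alternatives tested, with a highest adjusted p of 0.00131. At 2000 UMIs JUNB was in 15% of G1 cells, 13.3% of S cells and 10.1% of G2M cells of SplitA. In SplitB the shares were 12.9%, 9.60% and 11.6%, so there S and not G2M was lowest.

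KLF6 was at 20.6 CPM in G1, 24.0 in S and 46.8 in G2M in SplitA, and at 22.4, 25.6 and 40.0 in SplitB. Its log2 change from G1 to G2M was 0.87 ± 0.17 (adjusted p = 4.9e-06 by edgeR). JUND rose by 0.32 ± 0.10 (adjusted p = 0.0037 by edgeR), from 90.2 to 117 CPM in SplitA and from 94.1 to 131 in SplitB. Neither passed with DESeq2 (adjusted p = 0.0721 for KLF6 and 0.399 for JUND) or in cells of at least 2000 genes (0.0640 and 0.399). With phases called from thinned cells KLF6 passed (0.74, adjusted p = 0.00113 by edgeR) and JUND did not (0.21, adjusted p = 0.111). In all, of 10587 genes tested, 15.6% were higher and 15.4% lower in G2M than in G1, and of 9 members 2 rose and 1 fell. G2M cells were deeper, with a median of 7096 and 7047 UMIs against 5829 and 6092 in G1. FOS (-0.32), JUN (0.23), IER2 (0.14), EGR1 (-0.18), DUSP1 (0.19) and ATF3 (-0.02) did not pass.

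**Figure D5:**
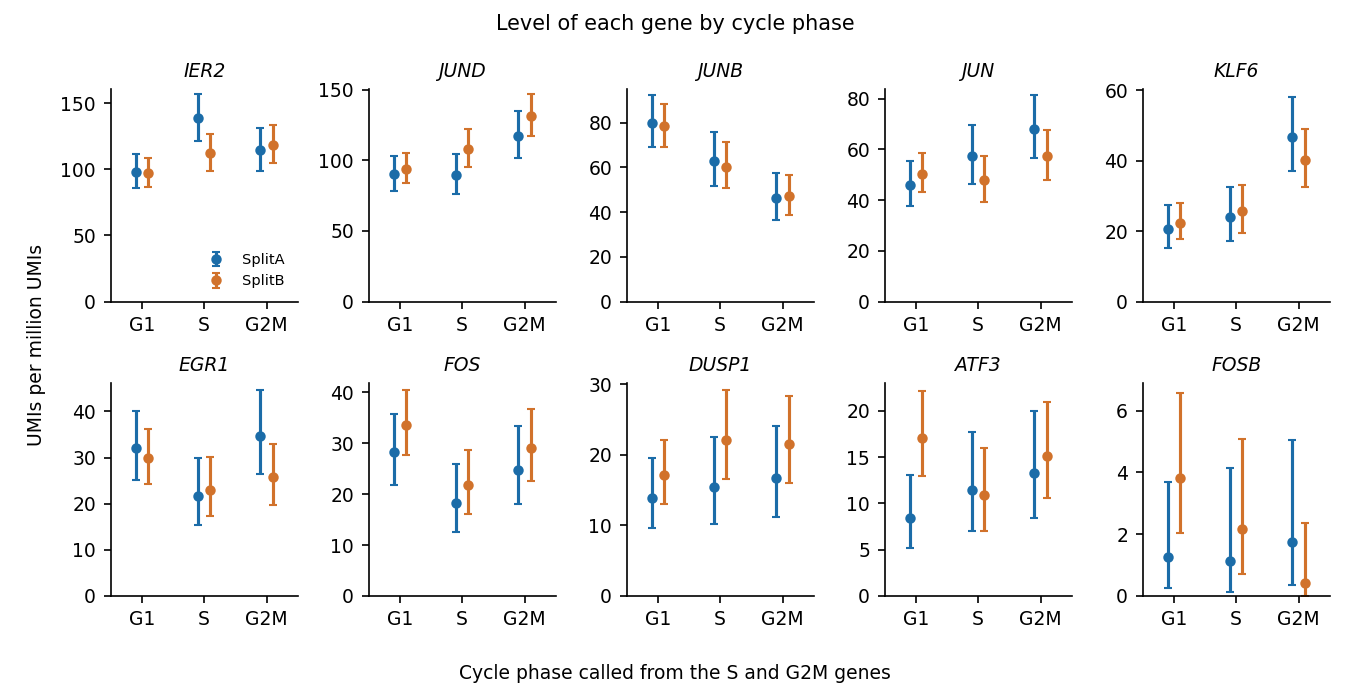
Level of each gene (CPM) in cells called G1, S and G2M in SplitA and SplitB, with 95% Poisson intervals. JUNB falls from 80.1 to 46.2 in SplitA and from 78.5 to 47.2 in SplitB, KLF6 is highest in G2M at 46.8 and 40.0, and FOS is lowest in S at 18.3 and 21.7.

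In S compared with G1, 11.0% of genes were higher and 9.61% lower, and of 9 members 1 rose and 3 fell. FOS was lowest in S in each flask, at 28.2 CPM in G1 and 18.3 in S in SplitA and at 33.6 and 21.7 in SplitB, a log2 change of -0.71 ± 0.19 (adjusted p = 0.00187 by edgeR). JUNB fell by 0.45 on the log2 scale (adjusted p = 0.0014) and EGR1 by 0.54 (adjusted p = 0.0239), the latter from 32.0 to 21.7 CPM in SplitA and from 29.8 to 23.0 in SplitB. IER2 rose by 0.26 ± 0.09 (adjusted p = 0.0335), from 97.8 to 138 CPM in SplitA and from 97.0 to 112 in SplitB. Its rise did not pass in 7 of 14 alternatives, among them cells under 15% mitochondrial UMIs (0.19, adjusted p = 0.179), and the fall of EGR1 did not in 5 of 14. DESeq2 called none of the 9 members in S, and 2 had an unadjusted p under 0.05 with it.

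Of 14 other effectors tested, 4 fell in S and none rose, with a median log2 change of -0.30 against 0.00 for all genes: the growth arrest genes GADD45G (-1.11), GADD45A (-0.64) and BTG1 (-0.52), and PPP1R15A (-0.93), which restores translation after stress. In G2M 2 rose, IER5 (0.84) and MCL1 (0.50), and 5 fell, among them GADD45G (-1.35) and ARC (-0.71). KLF10 (-0.85) was the 1 of 3 other transcription factors that fell in S, and ATF7 fell by 0.69 in S and by 0.59 in G2M among 7 other AP-1 genes. Of 9 ERK feedback genes none passed in S, and in G2M SPRED1 (0.76) and SPRY2 (0.53) rose and DUSP5 (-1.65) fell. Library size alone in place of TMM moved the median of all genes from 0.00 to 0.08 in S and from 0.03 to 0.15 in G2M and added JUN (0.35) and IER2 (0.26) to the members higher in G2M.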

How the data were processed

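The series held an mRNA and a hashtag library of pooled SH-SY5Y cells. According to the submitters' processing notes the authors used STAR 2.7 and Cell Ranger 4.0.0 with hg38 (GRCh38), and they deposited the filtered matrix as text, with UMI counts per Ensembl gene and cell and the counts of both hashtags as the last rows. The counts were not normalized. The annotation version is not given in the sources used here. A UMI counts a molecule, so no length scaling was applied.

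The members, lists and tests were chosen with earlier results of these data known. Named were all members, the 10 most similar genes and, of each list, genes that passed or were highest. Cells were assigned by hashtag and kept with at least 1000 genes. Hashtag multiplets were removed, and no further doublet caller was run, so doublets within a flask remained. Kept cells had 1801 to 27205 UMIs. Symbols came from the reference table, and phases from Seurat 5.3.0. Thinning drew each cell to 2000 UMIs. Counts summed per flask and class were tested with edgeR 4.0.16 in R 4.3.3 (quasi-likelihood, TMM, flask as a block, 4 sums in the mitochondrial and 6 in the cycle fit), and DESeq2 1.42.0 was an alternative. The flasks came from the same culture. With the flask as a block, p-values weigh a change only against counting error and how far changes differed between these 2 flasks, largely pooled over genes. In the cycle fit behind the results, they equal those of a normal distribution for the change divided by its SE. A gene's own difference between the flasks thus had almost no weight there. Each SE was derived from the change and its test statistic and is not a spread over flasks. Dispersions were estimated with information shared over genes, and cells were not used as replicates.

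The first edgeR fit used the default form without gene-wise dispersions. It called no member in the mitochondrial contrast. On simulated counts it also made no call among changed genes of that contrast, which has 1 residual degree of freedom. After its results had been seen it was replaced by the earlier form with gene-wise dispersions. The simulation gave every gene the same dispersion, while on the real sums the first form did call other genes, as given below. It thus cannot decide which form is right for these data. The calls of the first form are kept as an alternative. Cells of at least 5% mitochondrial UMIs, pairs given depth, pairs over all draws and the measure of spread were likewise added after seeing the data. Descriptions used Python 3.11.15 (pandas 2.3.3, scipy 1.17.1, numpy 2.4.6), and figures matplotlib 3.10.9.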

Additional observations from a re-analysis of the deposited data

How the results depend on the processing

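No test had more than 2 flasks, and the contrasts have no test with 1 flask, so their values without a flask are values only. The depth of about 6000 UMIs per cell leaves FOSB and most members at 0 or 1 UMI in a cell. The median share of cells was 5.40% at 2000 UMIs, 6.0% in cells of at least 2000 genes, 2.97% at 1000 UMIs and 15.6% without thinning. Members per cell were 0.818, and 0.777, 0.464 and 2.11 under the same settings and 0.803 in another draw. The 8 pairs became 4 in cells of at least 5% mitochondrial UMIs, 2 at 1000 UMIs, 1 without thinning, 19 at a ratio of 1.2, 4 at a ratio of 2, 4 over all draws and 0 given depth, and 15 to 16 with 1 flask left out. The 4 correlated members became 9 at a limit of 0.05, 0 at 0.2, 1 in cells thinned to 2000 UMIs and 5 to 8 with 1 flask left out.

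The 1 member called in the mitochondrial contrast became 2 in cells of at least 500 genes and with no replicate block, 4 with library size only, and 0 in cells of at least 2000 genes, at a limit of 10%, with the 9 mitochondrial genes of the study code, with DESeq2 and in edgeR without gene-wise dispersions, where 2, 1, 1, 1 and 2 members had an unadjusted p under 0.05. JUND turned to 0.073 in cells of at least 2000 genes and to 0.14 at a limit of 10%, and JUNB to 0.68 with library size only. The high class held only 3 SplitA and 10 SplitB cells at 2000 genes, and 3 and 15 with the 9 mitochondrial genes. JUND was called in 9 of 15 alternatives tested and not in the others. Among the 9 were cells of 2000 to 4000 UMIs (-1.33, adjusted p = 0.00057 by edgeR). The 4 members called in S became 2 in cells of at least 2000 genes and with phases from thinned cells, and 0 with DESeq2. The 3 called in G2M became 1 in cells of at least 2000 genes (JUNB) and with DESeq2 (JUNB), and 5 with library size only. The replicate block changed the call of DUSP1 alone in the mitochondrial contrast (adjusted p = 0.0418 by edgeR without it) and no member in the cycle contrasts, where 4 and 3 were called with no replicate block. The causes were not tested.

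Over all genes the mitochondrial contrast had 994 higher and 1378 lower. It had 456 and 724 with DESeq2, 444 and 694 without gene-wise dispersions, 2240 and 2572 in cells of at least 500 genes, 1 and 1 in cells of at least 2000 genes, 456 and 866 at a limit of 10%, 1 and 310 with 9 mitochondrial genes, and 2978 and 530 with library size only. S had 1161 and 1017, 392 and 268 with DESeq2 and 699 and 555 in cells of at least 2000 genes. G2M had 1655 and 1634, 501 and 513 with DESeq2 and 907 and 852 in cells of at least 2000 genes. With library size only, 67.7% of the calls in S and 66.7% in G2M were higher, against 53.3% and 50.3%.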

Other observations

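ATF4 target genes, which share an inducing stress pathway with ATF3, changed with the cycle in both directions. DDIT4, an inhibitor of mTORC1, fell most, by a log2 of -4.01 ± 0.49 in S (adjusted p = 1.2e-14 by edgeR) and -3.51 ± 0.45 in G2M against G1. Its change rests on few cells, with 28 UMIs in 2.56% of SplitA cells and 74 UMIs in 3.10% of SplitB cells. DDIT3, the factor CHOP, had -1.14 and -1.65. The serine synthesis genes PSAT1 (0.87 in S and 1.34 in G2M) and PHGDH (0.83 and 0.70) rose. In the whole list, which includes ATF4 itself and XBP1, 3 of 8 rose and 2 fell in S, and 2 rose and 3 fell in G2M. Of the heat shock genes, HSPB1 fell (-0.53 in S and -0.72 in G2M) and HSP90AA1 rose (0.41 and 0.39), with 4 of 11 higher and 3 lower in S and 3 higher and 4 lower in G2M.

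The 73 multiplets with at least 1000 genes, which entered no comparison, had a median of 7636 UMIs. Their levels were 96.9 CPM for IER2, 91.7 for JUND, 60.6 for JUNB, 51.9 for JUN, 27.7 for EGR1 and for KLF6, 20.8 for ATF3 and for DUSP1 and 19.0 for FOS, and FOSB had 1 UMI.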
